A study of Homo sapiens with 24 samples.

Results

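The 9 receptor genes described here carry growth-factor signals into neuroblastoma cells: RET, its co-receptors GFRA1, GFRA2 and GFRA3, ALK, the neurotrophin receptors NTRK2, NTRK3 and NGFR, and KIT. They were chosen by symbol, and all 9 were found among the 60564 rows of the table, 1 row each. Transcript levels are given as FPKM, fragment counts corrected for gene length and for library size, so levels can be compared between genes. RNA came from 2 human neuroblastoma lines. SK-N-BE(2) has amplified MYCN, while SH-SY5Y lacks the amplification but has an activating ALK mutation. In each line NDUFS6, a subunit of mitochondrial complex I, was lowered by a lentiviral short hairpin RNA (knockdown) or raised from a lentiviral coding sequence (overexpression). Cells with the matching empty vector served each construct, called here the knockdown control and the overexpression control. All 8 groups were infected with lentivirus in polybrene and selected with puromycin for about a week, and none was uninfected. Each group had 3 libraries that the labels call biological replicates of a stable line. The sources used here do not say whether a line is 1 clone or how many hairpins were used, so the tests measure the spread between these libraries. In RNA from bulk cultures, fewer cells that express a gene and less of its RNA per cell cannot be told apart.

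RET is the receptor kinase for the GDNF family of ligands, which reach it only when bound to a GFR-alpha co-receptor: GFRA1 prefers GDNF, GFRA2 neurturin and GFRA3 artemin. ALK is a receptor kinase activated by the ALKAL proteins and is the kinase most often mutated in neuroblastoma. NTRK2 (TrkB) and NTRK3 (TrkC) are receptors for BDNF and for neurotrophin 3, NGFR (p75) binds all neurotrophins without a kinase domain, and KIT is the receptor for stem cell factor. Kinase receptors of this kind pass signals through adaptor proteins to the ERK and AKT pathways, and in the sympathetic lineage from which neuroblastoma arises they are known for guiding survival and differentiation.

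The libraries followed their labels for NDUFS6. Its level was 1.33 ± 0.261 FPKM (SD, n = 3) after SK-N-BE(2) knockdown against 11.2 ± 1.63 in the knockdown control, and 4.02 ± 0.939 against 11.5 ± 0.566 in SH-SY5Y. Overexpression gave 17.2 ± 2.07 against 12.8 ± 1.03 FPKM in SK-N-BE(2) and 208 ± 7.74 against 11.0 ± 0.679 in SH-SY5Y. The overexpression construct thus raised NDUFS6 1.34-fold in one line and 19.0-fold in the other. FPKM values summed to between 249708 and 276091 per library, no libraries were identical, and read depth is unknown. All 14 adrenergic neuroblastoma genes of a list were tested, HAND2 and GATA3 being present in every library, and their summed level lay between 693 and 1572 FPKM per library. TH, which makes the first enzyme of catecholamine synthesis and defines that lineage, was at 28.5 FPKM or more in SK-N-BE(2), but at most 0.278 in SH-SY5Y and listed at 0 in its 3 knockdown libraries. The Schwann cell regulators SOX10 and FOXD3 did not exceed 0.0668 FPKM in any library.

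RET had the highest level of the 9 receptors in 24 of 24 libraries. It made up 43.7% to 77.2% of their summed FPKM, and ALK was next to it by group mean in all groups but SK-N-BE(2) overexpression, where NGFR was. Against the tested genes of the same library, RET stood between the 74.8th and the 97.0th percentile and ALK between the 45.0th and the 93.5th. The other receptors were low: GFRA2, GFRA3, NGFR and KIT reached at most 6.42, 4.74, 6.01 and 2.95 FPKM, GFRA1 1.36, NTRK3 1.35 and NTRK2 0.388. A gene was tested when it reached 1 FPKM in at least 3 libraries. That left 7 of the 9: NTRK3 reached it in 2 libraries and NTRK2 in 0, and GFRA1 passed only through the 3 libraries of the SK-N-BE(2) knockdown control, so that it had to differ from that group. Its values against that group are therefore given without a test, and it is left out of the counts of receptors called. The counts of results kept under other settings, in the last section, include it.

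**Figure D1:**
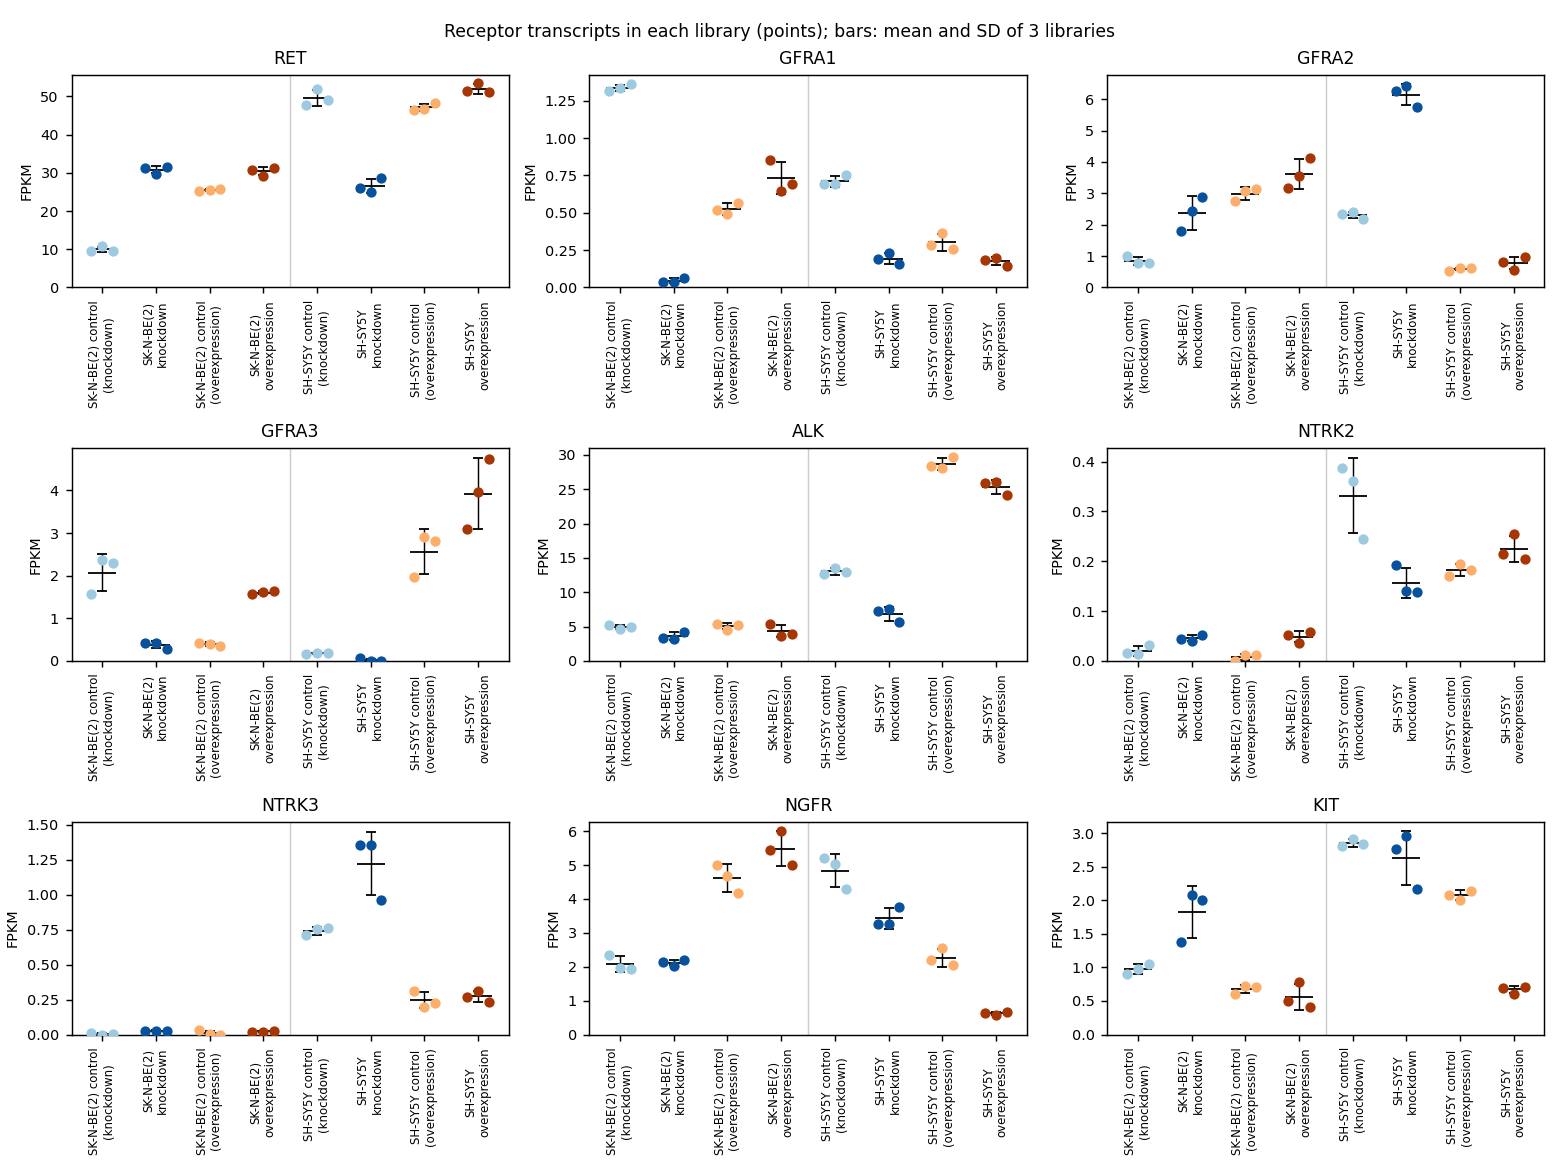
FPKM of each receptor in each of the 24 libraries, by group. Points are libraries, black bars the mean and SD of 3, and each panel has its own scale starting at 0. The SK-N-BE(2) knockdown control is the lowest RET group, at 10.0 FPKM, and the 2 SH-SY5Y overexpression vector groups are the highest for ALK.

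RET lies on chromosome 10, plus strand, at 43077027 to 43130351 (hg38). After SK-N-BE(2) knockdown RET had 31.2, 29.8 and 31.5 FPKM, against 9.66, 10.8 and 9.62 in the knockdown control. After SH-SY5Y knockdown it had 26.2, 25.0 and 28.7, against 47.8, 51.9 and 49.0 in the knockdown control. The groups did not overlap in either line, and the directions were opposite: RET rose 3.08-fold in SK-N-BE(2) and fell in SH-SY5Y, where the control was 1.86-fold higher. On the log2(FPKM + 1) scale used for all tests, which understates changes of low genes, the differences were 1.53 (SE 0.0489, adjusted p = 2.2e-15) and -0.87 (SE 0.0489, adjusted p = 5.9e-12). The overexpression control of SK-N-BE(2), however, held 25.1, 25.5 and 25.7 FPKM, 2.54 times the level of the knockdown control (adjusted p = 2e-13 between the controls). Against that other control the SK-N-BE(2) knockdown was higher by 0.27 on the log2 scale (adjusted p = 1.3e-04). In SH-SY5Y the overexpression control held 46.4, 46.8 and 48.2 FPKM and overlapped the knockdown control, and the knockdown was lower against it too, by -0.80 (adjusted p = 1.3e-11). The rise in SK-N-BE(2) knockdown cells therefore ranged from 0.27 to 1.53 with the control chosen, and the fall in SH-SY5Y from -0.80 to -0.87.

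After NDUFS6 overexpression RET was 30.8, 29.2 and 31.3 FPKM in SK-N-BE(2) and at 51.3, 53.5 and 51.1 in SH-SY5Y. SK-N-BE(2) overexpression cells were above their own control by 0.25 (SE 0.0489, adjusted p = 9.6e-04), with no overlap, and above the other control by 1.51. SH-SY5Y overexpression cells were above their own control by 0.14 (SE 0.0489, adjusted p = 0.035). That call was lost in 5 of 6 fits that left out 1 library, with log2 differences of 0.12 to 0.15 and adjusted p up to 0.13, and only the fit without overexpression control library 3 kept it. It was also lost with no filter on low values, and against the other control the difference was 0.07 (adjusted p = 0.25). Over the 8 groups the 3 SH-SY5Y groups other than knockdown were highest, where the knockdown control overlapped both overexpression vector groups and those did not overlap each other, SK-N-BE(2) knockdown and overexpression followed and overlapped, SH-SY5Y knockdown overlapped the SK-N-BE(2) overexpression control, and the SK-N-BE(2) knockdown control stood alone at the bottom.

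The 2 receptors that were most abundant, RET and ALK, were both lower after SH-SY5Y knockdown, so the sequences around their start sites are shown. They span the most upstream RefSeq start site, 5′ to 3′ on the gene's strand (GRCh38.p14), with GC boxes (GGGCGG or its reverse complement CCGCCC, neighbours of which can share a base) in capitals. RET is chr10:43076819-43077118 on the plus strand and ALK is chr2:29921537-29921836 on the minus strand.
RET: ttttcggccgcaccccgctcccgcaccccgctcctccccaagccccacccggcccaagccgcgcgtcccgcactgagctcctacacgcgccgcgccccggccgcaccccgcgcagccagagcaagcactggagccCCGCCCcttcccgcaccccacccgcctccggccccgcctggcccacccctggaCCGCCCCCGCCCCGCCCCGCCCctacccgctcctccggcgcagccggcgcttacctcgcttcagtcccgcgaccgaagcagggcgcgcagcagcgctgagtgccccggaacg
ALK: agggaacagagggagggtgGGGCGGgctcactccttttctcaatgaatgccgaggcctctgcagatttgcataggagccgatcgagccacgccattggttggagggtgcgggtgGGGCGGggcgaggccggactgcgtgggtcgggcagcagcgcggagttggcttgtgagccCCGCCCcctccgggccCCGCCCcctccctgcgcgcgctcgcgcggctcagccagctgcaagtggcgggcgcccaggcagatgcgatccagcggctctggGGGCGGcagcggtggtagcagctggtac
Both windows hold 5 GC boxes, and their GC content is 78.7% and 71%. At least 1 GC box is found in 45% of 35116 promoter windows of the same length in the RefSeq table, so its presence alone is common. Of the other receptors GFRA1, GFRA3, NTRK2, NTRK3 and KIT had an entry, with 0, 1, 1, 2 and 1 GC boxes. RET and ALK had 2 windows each and GFRA1 and NTRK2 had 4 each. Only the most upstream window of a gene was searched. None of the 7 windows holds CACGTG (the E-box of MYC and MAX, in 7.26% of windows), TGACGTCA (the cyclic AMP response element, 1.85%) or TGATGCAAT (a C/EBP-ATF element, 0.236%), searched on both strands. These matches describe letters in a window and say nothing of binding.

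ALK lies on chromosome 2, minus strand, at 29192774 to 29921566. All 4 SH-SY5Y groups lay above all 4 SK-N-BE(2) groups, with no overlap between the lines. In SH-SY5Y the levels were 7.28, 7.55 and 5.73 FPKM after knockdown, 12.6, 13.5 and 13.0 in the knockdown control, 25.9, 26.0 and 24.2 after overexpression, and 28.3, 28.1 and 29.6 in the overexpression control. None of these 4 groups overlapped its neighbour. ALK fell after knockdown by 0.84 on the log2 scale (SE 0.102, adjusted p = 5.9e-07), a control level 1.90-fold higher, and against the other control it was lower by -1.93 (adjusted p = 1.5e-12). The 2 controls differed from each other by -1.08 (adjusted p = 7.2e-08), more than knockdown differed from its own control. After overexpression ALK was not called against its own control (-0.17, interval -0.39 to 0.04, adjusted p = 0.22), although a fit of only the 2 compared groups did call it, while against the other control it was higher by 0.91 (adjusted p = 2.6e-07).

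In SK-N-BE(2) ALK was 3.39, 3.21 and 4.26 FPKM after knockdown and 5.29, 4.72 and 4.92 in the knockdown control. It was 5.31, 3.66 and 3.97 after overexpression and 5.43, 4.56 and 5.27 in the overexpression control. The 2 controls overlapped and were not called apart (-0.02, adjusted p = 0.90), in contrast to RET in the same libraries. The knockdown was lower by -0.38 against its own control (SE 0.102, adjusted p = 0.0037) and by -0.40 against the other (adjusted p = 0.0028), with no overlap. ALK was thus lower in the knockdowns of both lines, whichever control was used, in 6 of 6 knockdown libraries. The overexpression was not called (-0.21, interval -0.42 to 0.01, adjusted p = 0.14), but it was without overexpression library 1, the highest of its group (-0.34, adjusted p = 0.0088). The ratio of ALK to RET, both per length, ran from 0.108 in an SK-N-BE(2) knockdown library to 0.615 in an SH-SY5Y overexpression control library.

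The 3 GFR-alpha co-receptors summed to between 2.26 and 6.65 FPKM per library, well under RET, but which of them led changed from group to group. GFRA2, the neurturin co-receptor (chromosome 8, 21690403 to 21812357, minus strand), made up 96.6% ± 0.625 of their sum after SH-SY5Y knockdown and 84.3% ± 4.69 after SK-N-BE(2) knockdown. In the knockdown controls its share was 72.1% ± 1.87 and 20.2% ± 4.66. In the 2 SH-SY5Y overexpression vector groups GFRA3, the artemin co-receptor, led instead, with 74.0% ± 3.15 in the control and 80.1% ± 4.26 after overexpression. GFRA3 was also the largest in the SK-N-BE(2) knockdown control, with 48.3% ± 6.86. GFRA2 led in the SK-N-BE(2) overexpression control (76.4% ± 1.72) and overexpression cells (60.6% ± 3.56).

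**Figure D2:**
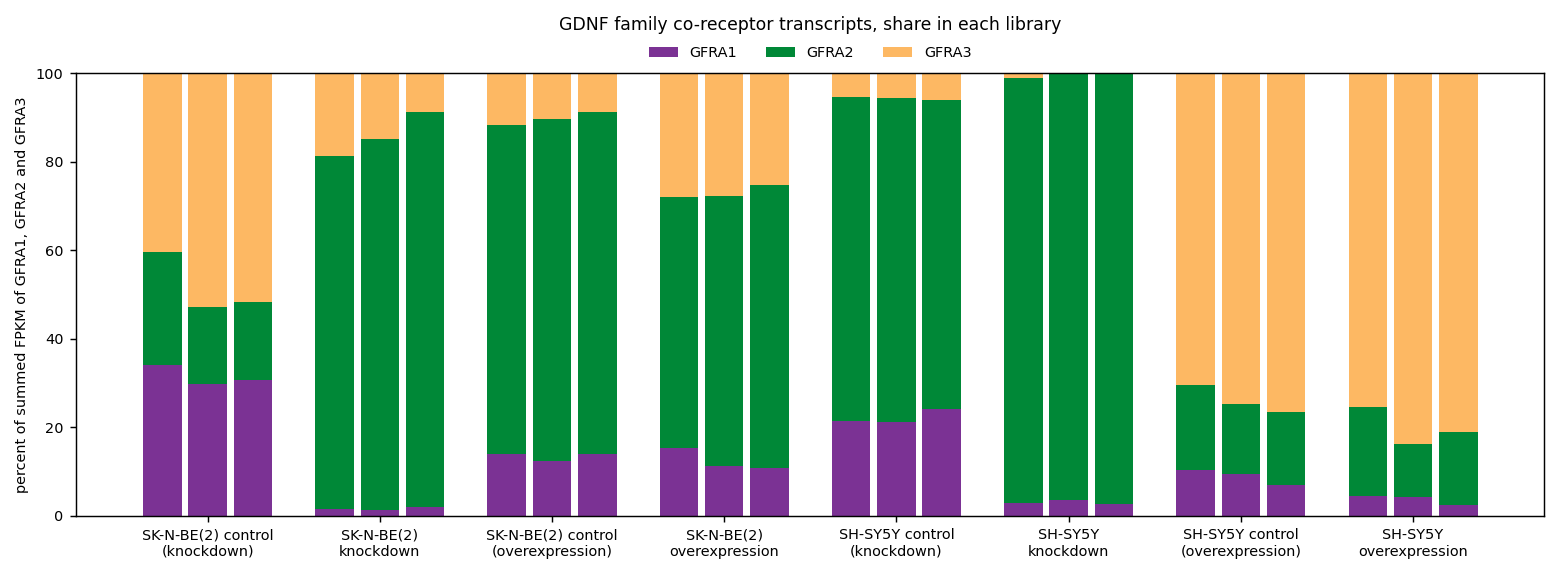
Share of GFRA1, GFRA2 and GFRA3 in their summed FPKM, 1 bar per library and 3 libraries per group. GFRA2 holds most of the sum in the 6 knockdown libraries, and GFRA3 holds more than 70% in the 6 SH-SY5Y overexpression vector libraries.

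GFRA2 stood at 6.25, 6.42 and 5.76 FPKM after SH-SY5Y knockdown, against 2.35, 2.40 and 2.19 in the knockdown control and 0.534, 0.619 and 0.604 in the overexpression control. It rose 2.66-fold against its own control (log2 1.11, SE 0.101, adjusted p = 9.2e-09) and by 2.17 against the other. SK-N-BE(2) cells had 1.80, 2.44 and 2.88 after knockdown, 0.992, 0.778 and 0.784 in the knockdown control and 2.76, 3.08 and 3.13 in the overexpression control. The knockdown was above the first control (0.85, SE 0.101, adjusted p = 4.6e-07) and below the second (-0.25, adjusted p = 0.044), so its direction in SK-N-BE(2) turned with the control. After overexpression GFRA2 was 3.18, 3.54 and 4.13 FPKM in SK-N-BE(2) and 0.821, 0.571 and 0.963 in SH-SY5Y. Neither was called against its own control (0.21, adjusted p = 0.13, and 0.17, adjusted p = 0.23). Against the other control both were, higher by 1.32 in SK-N-BE(2) and lower by -0.90 in SH-SY5Y.

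GFRA3 (chromosome 5, 138252379 to 138274671, minus strand) was 0.0631 FPKM in 1 SH-SY5Y knockdown library and listed at 0 in the other 2. The SH-SY5Y knockdown control had 0.172, 0.183 and 0.186, the overexpression control 1.96, 2.91 and 2.83, and the overexpression cells 3.09, 3.96 and 4.74. The 2 empty vector controls of SH-SY5Y differed 14.2-fold (log2 -1.58, SE 0.116, adjusted p = 1.8e-09), the widest gap between controls of any receptor tested. Overexpression was above its own control by 0.46 (SE 0.116, adjusted p = 0.0043) and above the other by 2.05, and the former call was lost when only the 2 compared groups were fitted. The SH-SY5Y knockdown was not called against its own control (-0.21, interval -0.45 to 0.03, adjusted p = 0.13), though it was with a pseudocount of 0.1 (-1.25) and in a fit of only the 2 groups, and against the other it was lower by -1.79. In SK-N-BE(2) GFRA3 was 0.420, 0.433 and 0.285 FPKM after knockdown, 1.57, 2.36 and 2.30 in the knockdown control, 1.56, 1.61 and 1.64 after overexpression and 0.430, 0.409 and 0.351 in the overexpression control. Knockdown fell by 1.15 and overexpression rose by 0.90 against their own controls (SE 0.116 each, adjusted p = 5.8e-08 and 1.8e-05). Against the other control neither was called (-0.02, adjusted p = 0.91, and -0.23, adjusted p = 0.12): knockdown cells lay with the overexpression control, and overexpression cells overlapped the knockdown control.

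GFRA1, the GDNF co-receptor (chromosome 10, 116056925 to 116273467, minus strand), was 1.32, 1.33 and 1.36 FPKM in the SK-N-BE(2) knockdown control and 0.0356, 0.0357 and 0.0652 after knockdown. The control mean was 29.4 times the knockdown mean, given without a test because this control let GFRA1 pass the filter, and read depth, which sets the precision of so low a level, is unknown. Against the overexpression control, with 0.519, 0.491 and 0.567 FPKM, the knockdown was also lower (-0.54, adjusted p = 1.6e-07). The overexpression cells had 0.854, 0.649 and 0.694. They were above their own control by 0.18 (adjusted p = 0.023) and below the other, which is the group that let it pass. The call against their own control was lost without overexpression library 1 (0.13) and without overexpression control library 1 or 2 (0.18 and 0.17), when only the compared groups were fitted, and with a pseudocount of 0.1. In SH-SY5Y GFRA1 had 0.191, 0.230 and 0.159 FPKM after knockdown against 0.690, 0.692 and 0.754 in the knockdown control, and it fell by 0.52 (adjusted p = 1.8e-07). Against the overexpression control (0.286, 0.363 and 0.256) the difference of -0.12 was not called (adjusted p = 0.072). The SH-SY5Y overexpression cells, with 0.185, 0.197 and 0.146, were not called against their own control (-0.15, adjusted p = 0.061), but were with no filter, plain moderation or a pseudocount of 0.1.

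NGFR (chromosome 17, 49495293 to 49515017, plus strand) shares 202 and 924 exon bases with 2 genes of the opposite strand, AC006487.1 and AC015656.1, and the sources used here do not say whether the authors' counting used strand. In SH-SY5Y it was 0.629, 0.571 and 0.660 FPKM after overexpression, against 2.19, 2.56 and 2.06 in the overexpression control and 5.20, 5.02 and 4.29 in the knockdown control. It fell by 1.01 against its own control (SE 0.079, adjusted p = 1.4e-08), a control level 3.66-fold higher, and by 1.85 against the other. The SH-SY5Y knockdown, at 3.25, 3.26 and 3.77, lay between the 2 controls: it was below its own (-0.40, adjusted p = 2.3e-04) and above the other (0.44, adjusted p = 7.4e-05). In SK-N-BE(2) NGFR was 2.13, 2.03 and 2.20 after knockdown and 2.33, 1.97 and 1.92 in the knockdown control, 2 groups that overlapped (0.02, interval -0.14 to 0.19, adjusted p = 0.83). It was 5.45, 6.01 and 4.99 after overexpression and 4.99, 4.68 and 4.17 in the overexpression control. That difference of 0.21 missed the threshold (adjusted p = 0.054), but it passed under median-of-ratios scaling (0.24), with a filter on the mean (0.21), and without overexpression library 3 (0.26) or control library 1 (0.25). Both overexpression vector groups lay above both knockdown vector groups in SK-N-BE(2), with no overlap.

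The neurotrophin kinase receptors NTRK3 and NTRK2 were low in all groups. NTRK3 (chromosome 15, 87859751 to 88256768, minus strand) was 1.35, 1.35 and 0.960 FPKM after SH-SY5Y knockdown, 0.710, 0.754 and 0.763 in the knockdown control, 0.272, 0.312 and 0.232 after overexpression and 0.311, 0.197 and 0.228 in the overexpression control. In SK-N-BE(2) no library exceeded 0.0301 FPKM, and 2 libraries were listed at 0. NTRK2 (chromosome 9, 84668551 to 85027070, plus strand) lay between 0.138 and 0.388 FPKM in SH-SY5Y, highest in the knockdown control, and at or under 0.0578 in SK-N-BE(2). Without the filter on low values, NTRK3 was higher after SH-SY5Y knockdown (0.35, SE 0.054, adjusted p = 5.3e-05) and NTRK2 lower (-0.20, SE 0.0333, adjusted p = 1.0e-04). The same fit called both genes higher in the SH-SY5Y knockdown control than in the overexpression control (0.49 and 0.17), and neither gene in SK-N-BE(2) for either construct or after SH-SY5Y overexpression.

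KIT (chromosome 4, 54657918 to 54740715, plus strand) was 1.37, 2.07 and 2.01 FPKM after SK-N-BE(2) knockdown, against 0.899, 0.978 and 1.05 in the knockdown control and 0.610, 0.718 and 0.707 in the overexpression control. It rose 1.86-fold against its own control (log2 0.50, SE 0.0959, adjusted p = 1.6e-04) and by 0.74 against the other. The SK-N-BE(2) overexpression cells had 0.500, 0.777 and 0.406, overlapped their control and were not called (-0.11, adjusted p = 0.42). In SH-SY5Y the overexpression cells had 0.688, 0.609 and 0.715, and their control 2.08, 2.01 and 2.14. KIT fell there by 0.88 (SE 0.0959, adjusted p = 8.7e-07), a control level 3.10-fold higher, and by 1.21 against the knockdown control. The SH-SY5Y knockdown, at 2.76, 2.95 and 2.17, overlapped its own control at 2.80, 2.91 and 2.84 (-0.09, interval -0.29 to 0.11, adjusted p = 0.44), and was above the other by 0.23 (adjusted p = 0.044). KIT also marks melanocytes and mast cells, and of 10 genes of those cells 2 were tested, MITF and PMEL, which reached 3.18 and 1.97 FPKM. MITF was called higher in SK-N-BE(2) knockdown (0.18, adjusted p = 0.036) and lower after SH-SY5Y overexpression (-0.21, adjusted p = 0.023), the same directions as KIT, and higher in SH-SY5Y knockdown (0.28, adjusted p = 0.0016), where KIT was not called. PMEL was called lower after SH-SY5Y knockdown and overexpression (-0.67 and -0.37). Against the other control the first call held (-0.92) and the second was lost (-0.12, adjusted p = 0.15). The mast cell genes TPSAB1 and TPSB2 reached 1.13 and 0.770 FPKM, MS4A2 was listed at 0 throughout, and the other 5 genes, TYR among them, did not exceed 0.202. The part of these genes' cells in the KIT results was not tested.

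Counted over 6 tested receptors (GFRA1 left out) against their own controls, SK-N-BE(2) knockdown called 3 higher and 2 lower, where 55.7% of 15902 tested genes were called in either direction. SH-SY5Y knockdown called 1 higher and 3 lower (background 56%), SK-N-BE(2) overexpression 2, each of them higher (29.7%), and SH-SY5Y overexpression 2 higher and 2 lower (32.6%). Between the empty vector controls 1 receptor was higher and 3 were lower in the SK-N-BE(2) knockdown control (background 34.5%, of which 15.5% higher and 19% lower). In SH-SY5Y 3 were higher and 2 lower (36.2%, of which 18.4% higher and 17.8% lower). With backgrounds this high these counts do not set the receptors apart from other genes. The median size of the receptors' differences was 0.68 on the log2 scale for SK-N-BE(2) knockdown and 0.62 for SH-SY5Y knockdown, and 0.25 and 0.26 over all tested genes. For the controls of SK-N-BE(2) and SH-SY5Y it was 0.99 and 0.95, against 0.15 and 0.16 over all tested genes. For overexpression it was 0.21 and 0.32, against 0.14 and 0.15.

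Against the line's other empty vector, 5 of 6 receptors were called in SK-N-BE(2) knockdown (background 47.7%), 6 in SH-SY5Y knockdown (58.2%), 4 in SK-N-BE(2) overexpression (40.3%) and 5 in SH-SY5Y overexpression (55.4%). A stricter count asked for a call in the same direction against both empty vector controls of the line. In SK-N-BE(2) knockdown cells 3 receptors met it, with RET and KIT higher and ALK lower (35.4% of all tested genes met it). In SH-SY5Y knockdown cells 3 did, with GFRA2 higher and RET and ALK lower (42.5%). SK-N-BE(2) overexpression left RET alone, higher (14.3%), and SH-SY5Y overexpression left GFRA3 higher and NGFR and KIT lower (27%). Calls that turned direction with the control were GFRA2 in SK-N-BE(2) knockdown and NGFR in SH-SY5Y knockdown. The empty vectors differ between the 2 construct types, and their part in the differences between controls cannot be told apart from that of the separately selected cell populations.

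**Figure D3:**
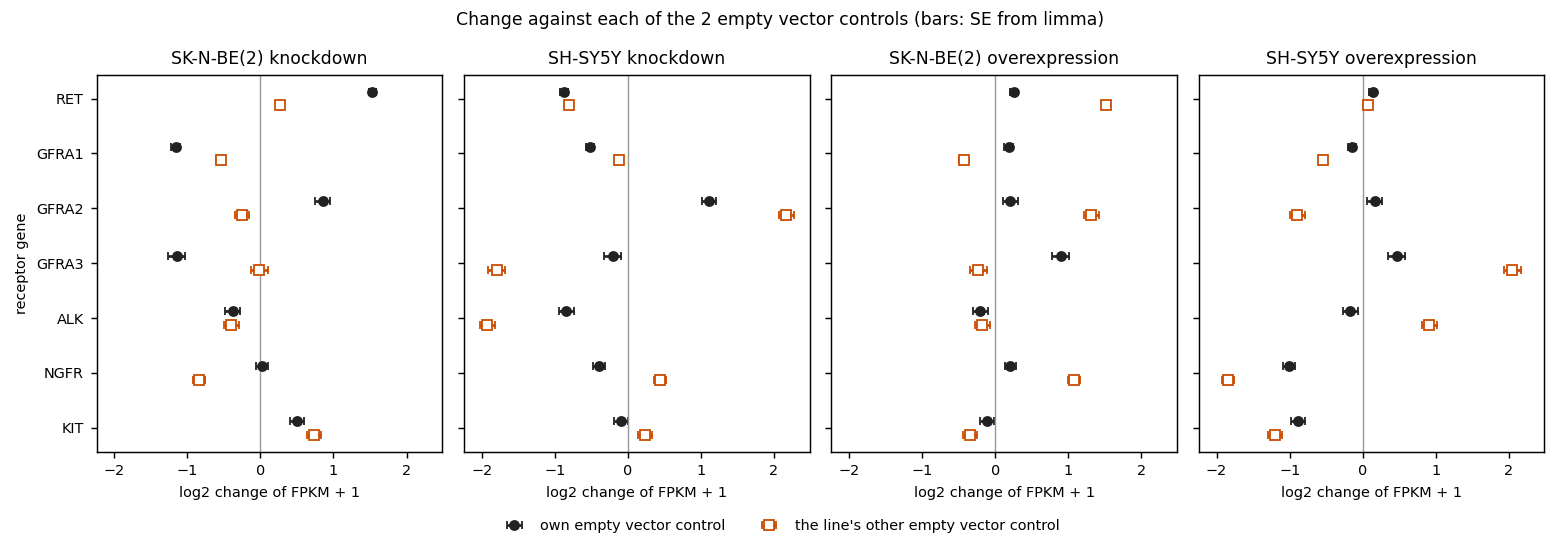
Log2 change (FPKM + 1) of the 7 tested receptors in each of the 4 construct comparisons, against the construct's own empty vector control (filled circles) and the line's other one (open squares), with the SE. For RET in SK-N-BE(2) knockdown cells the symbols stand at 1.53 and 0.27, and for ALK at -0.38 and -0.40.

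The lines differed in their response to knockdown for 5 of 6 receptors, 4 in the higher and 1 in the lower direction (background 55.8%, of which 29.5% and 26.3%), and for 6 of 6 with the other controls (53.6%). RET had the widest difference, 2.40 (SE 0.0692, adjusted p = 3.2e-16), and it was 1.07 with the other controls (adjusted p = 6e-11). KIT (0.59) and ALK (0.47) also kept their direction and call with the other controls, at 0.51 and 1.52 (38.1% of tested genes did). NGFR and GFRA3 did not: their values of 0.42 and -0.94 became -1.28 and 1.77. GFRA2 was not called (-0.25, interval -0.55 to 0.04, adjusted p = 0.14), although it was without SK-N-BE(2) knockdown library 3 (-0.36) and with the other controls (-2.42). For overexpression 3 of 6 receptors were called, all in the higher direction (background 36.8%, of which 18.3% higher), and 6 with the other controls (53.2%). NDUFS6 itself changed to a different degree in the lines, by -1.05 between them for knockdown and -3.73 for overexpression. The line and the degree of change in NDUFS6 cannot be told apart here. NGFR (1.22) and KIT (0.77) kept direction and call with the other controls, at 2.92 and 0.86 (25.7% of tested genes did). GFRA3 (0.43) became -2.28. The GFRA3 call was also lost in 10 of 12 fits without 1 library (0.30 to 0.45; all but those without SH-SY5Y overexpression library 3 or control library 1), under TPM scaling, with no filter and with only the compared groups. Between the empty vector controls of the lines, 1 receptor was higher and 3 were lower in SK-N-BE(2) (background 77.3%, of which 33.5% and 43.8%). RET averaged 17.7 ± 8.45 FPKM over the 6 SK-N-BE(2) control libraries and 48.3 ± 1.97 over the 6 of SH-SY5Y, and ALK 5.03 ± 0.352 and 20.9 ± 8.60, with no overlap for either.

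Few of the ligands for these receptors were transcribed at a level that could be tested. Of 13 ligand genes 5 passed the filter. GDNF did not exceed 0.023 FPKM as a group mean, ALKAL1 was listed at 0 throughout, and ALKAL2, ARTN, NTF3, NTF4 and PSPN reached group means of at most 0.450, 0.138, 0.013, 0.114 and 0.874. The heparin-binding growth factors pleiotrophin (PTN) and midkine (MDK), which have been proposed as ALK ligands, were abundant. PTN was 186 ± 13.6 FPKM after SH-SY5Y knockdown against 36.4 ± 0.950 in its control (log2 2.32, adjusted p = 5.2e-16), and 86.1 ± 2.67 against 138 ± 3.06 in SK-N-BE(2) (-0.67, adjusted p = 1.1e-07). Both directions held against the other control (3.04 and -0.91), so PTN rose in the line where RET fell and fell in the line where RET rose. MDK fell in SH-SY5Y knockdown cells (104 ± 6.11 against 140 ± 5.82, adjusted p = 8e-04) and was not called in SK-N-BE(2) (adjusted p = 0.33). KITLG, which encodes stem cell factor, was lower after SH-SY5Y knockdown (3.87 ± 0.157 against 6.72 ± 0.299, adjusted p = 1.7e-07) and overexpression (3.55 ± 0.437 against 4.64 ± 0.123, adjusted p = 0.0026). It was higher in both SK-N-BE(2) construct groups against their own controls (log2 0.31 and 0.25). Against the other control the SK-N-BE(2) overexpression mean was instead the lower (2.32 ± 0.294 against 2.65 ± 0.145 FPKM), and this was not called. BDNF was 1.09 ± 0.0601 FPKM after SK-N-BE(2) knockdown against 1.55 ± 0.191, and 2.09 ± 0.142 after overexpression against 1.51 ± 0.117. These 2 opposite calls (adjusted p = 0.0011 and 0.0024) held against the other control, as did a rise after SH-SY5Y knockdown (0.43) to a mean of 0.443 FPKM. NRTN, which encodes neurturin, was lower in SH-SY5Y after knockdown (-0.51, adjusted p = 0.027) and overexpression (-0.52, adjusted p = 0.038), and the first call was lost against the other control, while in the second the libraries overlapped.

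Of 14 further receptors and co-receptors of these ligands, 9 were tested. SK-N-BE(2) knockdown called 4, each of them higher, and SH-SY5Y knockdown 3 higher and 4 lower, where 27.4% and 26.3% of all tested genes were called higher and 28.3% and 29.6% lower. LTK, the kinase closest to ALK, was 1.33 ± 0.0544 FPKM after SH-SY5Y knockdown against 0.317 ± 0.0324, in the same libraries where ALK was lower. It reached 1 FPKM in no other group, so it passed the filter only through SH-SY5Y knockdown and had to differ from the others. Its values are therefore given without a test, and it is 1 of the 3 counted as higher there. Sortilin (SORT1), a partner of NGFR, fell in SH-SY5Y knockdown cells (7.55 ± 0.139 against 11.7 ± 0.210, adjusted p = 1.9e-06), and SORCS1 of the same family rose (46.1 ± 0.187 against 16.6 ± 0.262, adjusted p = 1.5e-13). NCAM1, which can serve as a GDNF receptor with GFRA1, rose in SK-N-BE(2) knockdown cells (13.9 ± 0.721 against 8.71 ± 0.520, adjusted p = 1.5e-08) and fell after SH-SY5Y overexpression (23.6 ± 0.107 against 31.0 ± 0.867, adjusted p = 3.8e-05). SH-SY5Y overexpression called 1 of the 9 higher and 5 lower (background 15.4% and 17.2%), SK-N-BE(2) overexpression 2 and 4 (12.9% and 16.8%).

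Adaptors that carry signals from these receptors moved in both directions. Of 26 tested, SK-N-BE(2) knockdown called 11 higher and 8 lower and SH-SY5Y knockdown 8 and 11, where 27.4% and 26.3% of all tested genes were called higher and 28.3% and 29.6% lower. SH2B3 (LNK), which restrains KIT and other receptors, rose in SK-N-BE(2) knockdown cells from 2.39 ± 0.247 to 14.2 ± 2.28 FPKM (log2 2.16, adjusted p = 2.1e-14), beside the rise of KIT. GRB2, the adaptor that links phosphorylated receptors to SOS, fell there from 21.4 ± 0.707 to 15.1 ± 0.725 (adjusted p = 1.8e-08). In SH-SY5Y knockdown cells SHC1 rose from 76.6 ± 1.59 to 113 ± 3.98 (adjusted p = 6.2e-11), and DOK6, an adaptor for RET, from 4.89 ± 0.0572 to 8.12 ± 0.441 (adjusted p = 9.2e-06). DOK4, likewise a RET adaptor, rose after overexpression in both lines (0.52 and 0.42, adjusted p = 3.3e-05 and 1.2e-04). All 5 of these genes were called in the same direction against the other control.

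Of 29 tested members of other receptor kinase families, limma called 17 after SH-SY5Y overexpression, each of them lower, where 17.2% and 15.4% of all tested genes were called lower and higher, and the median log2 difference was -0.27 against -0.01 for all genes. With TPM or median-of-ratios scaling 17 were lower and 1 higher, and against the other control the 21 called were all lower. EPHA2 (3.14 ± 0.189 against 6.59 ± 0.395 FPKM, adjusted p = 6.3e-10), INSRR (1.67 ± 0.138 against 3.45 ± 0.451) and FGFR4 (0.668 ± 0.0768 against 1.67 ± 0.0763) were among them, so KIT and NGFR fell in libraries where many receptor kinases did. SH-SY5Y knockdown called 14 higher and 11 lower (background 26.3% and 29.6%), a split that was 11 and 13 under TPM scaling. EGFR rose there from 3.61 ± 0.0541 to 17.3 ± 0.600 FPKM (log2 1.99, adjusted p = 5e-12) while RET and ALK fell. SK-N-BE(2) knockdown called 13 higher and 4 lower (background 27.4% and 28.3%), with EPHA2 and EPHB3 higher (1.08 and 1.04), and SK-N-BE(2) overexpression 9 and 6 (12.9% and 16.8%).

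Genes that ERK signalling induces and that feed back on it were called mostly higher in the knockdowns of both lines. Of 19 tested, 15 were higher and 2 lower in SK-N-BE(2) knockdown cells (median log2 1.22, against -0.01 for all genes), and 13 higher and 3 lower in SH-SY5Y knockdown cells (0.45). Over all tested genes 27.4% and 26.3% were called higher and 28.3% and 29.6% lower. In the same direction against both controls there were 15 and 1, and 10 and 3 (35.4% and 42.5% of all tested genes, both directions together), and under TPM scaling 15 and 2, and 12 and 3. SPRY4, an inhibitor of receptor kinase signalling, rose in both (20.9 ± 0.121 against 5.80 ± 0.121 FPKM, and 9.42 ± 0.844 against 4.46 ± 0.226), and so did the ETS factor ETV5 (24.8 ± 2.71 against 6.39 ± 0.342, and 11.2 ± 0.371 against 7.29 ± 0.575). The AP-1 gene FOSL1 was 16.5 ± 2.67 FPKM after SK-N-BE(2) knockdown against 0.073 ± 0.0815 (log2 4.02, adjusted p = 1e-14) and was not called in SH-SY5Y against its own control (adjusted p = 0.15), though it was against the other (1.25). The ERK phosphatases DUSP6 and DUSP4 split between the lines: DUSP6 was 17.0 ± 1.67 against 14.1 ± 1.17 in SK-N-BE(2) (0.26, adjusted p = 0.0016) and 4.60 ± 0.270 against 12.2 ± 0.245 in SH-SY5Y (-1.24, adjusted p = 1.1e-12). DUSP4 was 19.3 ± 1.06 against 8.51 ± 0.452 in SK-N-BE(2) and 10.3 ± 0.729 against 19.0 ± 0.726 in SH-SY5Y. After overexpression the list split 5 higher and 2 lower in SK-N-BE(2) and 6 and 5 in SH-SY5Y, beside background shares of 12.9% and 16.8%, and 15.4% and 17.2%.

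**Figure D4:**
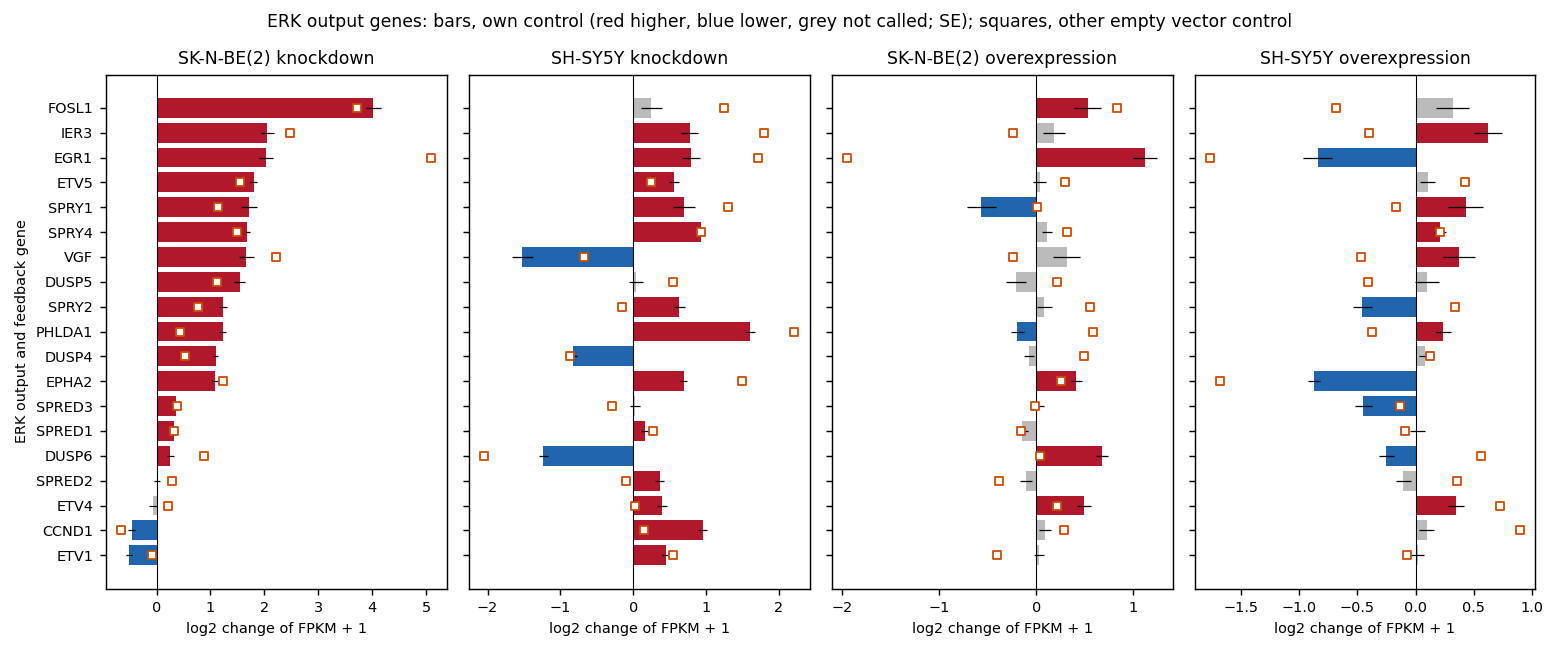
Log2 change (FPKM + 1) of 19 ERK output and feedback genes in the 4 construct comparisons, in the order of the SK-N-BE(2) knockdown, with own scales on the x axes. Bars with SE are against the own control (red higher, blue lower, grey not called), squares against the other control of that line. In SK-N-BE(2) knockdown cells 15 bars are red, and DUSP6 and DUSP4 are blue in SH-SY5Y knockdown cells.

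Retinoic acid is known to raise RET in neuroblastoma cells. Genes of its response were called mostly higher in the SK-N-BE(2) knockdown, and more often lower than higher in that of SH-SY5Y. The difference of the lists between the lines was not tested, nor was any part of these genes in the RET differences. CYP26A1 and CYP26B1 were among the listed genes that did not pass the filter. Of 10 tested, SK-N-BE(2) knockdown called 8 higher and 2 lower and SH-SY5Y knockdown 2 higher and 5 lower, beside 27.4% higher and 28.3% lower, and 26.3% higher and 29.6% lower, over all tested genes. The binding protein CRABP2 rose from 119 ± 6.37 to 212 ± 24.3 FPKM in SK-N-BE(2) (log2 0.82, adjusted p = 3.5e-07) and fell from 106 ± 2.50 to 24.1 ± 3.52 in SH-SY5Y (-2.10), and the receptor RARB moved 0.46 and -0.88. STRA6, the retinol uptake receptor, rose in both (1.42 and 0.98). Against both controls 6 higher and 1 lower, and 2 higher and 4 lower, were called in the same direction (35.4% and 42.5% of all tested genes). SK-N-BE(2) overexpression called 6, each of them higher (background 12.9% higher), and SH-SY5Y overexpression 2 higher and 2 lower (15.4% and 17.2%). Against the other control of SK-N-BE(2), CRABP1, TGM2 and RARA stayed higher. There STRA6 (0.02) and ALDH1A3 (-0.08) were not called, and CRABP2 was called lower (-0.31, adjusted p = 0.012). In SH-SY5Y overexpression TGM2 turned from 0.44 to -0.93 with the other control, while STRA6, RARG and RARB kept direction and call.

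Lineage markers moved in the same libraries. The summed level of the 14 adrenergic genes was 693 to 869 FPKM per library after SK-N-BE(2) knockdown, against 948 to 969 in the knockdown control and 1323 to 1430 in the overexpression control. In SH-SY5Y it was 784 to 814 after knockdown, 1067 to 1082 in the knockdown control and 1442 to 1476 in the overexpression control. The controls thus differed in these genes too, and in both lines the sum was lowest in the knockdown cells. The summed level of 10 fibroblast and stroma genes was 292 to 303 FPKM after SH-SY5Y knockdown, 149 to 154 in the knockdown control and 65.9 to 69.8 in the other 2 SH-SY5Y groups. Of 9 tested, 8 were called higher and 1 lower after SH-SY5Y knockdown (background 26.3% and 29.6%). In SK-N-BE(2) the 4 groups lay between 161 and 242, and knockdown called 2 of the 9 higher and 2 lower (background 27.4% and 28.3%). The 9 Schwann cell genes summed to at most 17.0 FPKM, most of it PMP22, the 10 melanocyte and mast cell genes to at most 3.82, and the 10 immune and endothelial genes to at most 12.0, most of it CD68, in SH-SY5Y knockdown cells. PTPRC, CD3E and PECAM1 did not exceed 0.143, 0.0213 and 0.00267 FPKM. The part of these marker changes in the receptor differences was not tested.

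Across the 8 group means the genes with the most similar pattern were looked for among 9141 genes that reached 5 FPKM in a group, by Pearson's r on the log2 scale. Groups of a line share their parent cells, and these values are descriptions over 8 points. NAV1 (r = 0.97), SMAP1 (0.97) and UBE2R2 (0.95) were closest to RET, and IL17RD (0.99), ACVR2B (0.98) and RTL1 (0.98) to ALK. GFRA2 was closest to LGALS1 (0.97), HTRA1 (0.96) and CD276 (0.96), and GFRA3 to HNRNPH3 (0.96), TFAP2B (0.95) and RRP1 (0.95). For NGFR they were RNPEP (0.98), ASAP3 (0.91) and PTGR1 (0.90), for KIT NECTIN2 (0.98), DCAF5 (0.98) and BBC3 (0.97), and for GFRA1 NMT2 (0.91), ESD (0.91) and SLC39A10 (0.90). Among the receptors themselves RET and ALK had r = 0.67, and GFRA2 and GFRA3 r = -0.79.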

How the data were processed

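Per the labels, total RNA was extracted with TRIzol, and TruSeq libraries that keep strand were sequenced on a NovaSeq instrument. The submitters' processing notes name FastQC 0.11.2, STAR and StringTie 1.3.1c and the hg38 build. The sources used here do not give the annotation release or counting settings. The deposited values are FPKM per gene, made by the authors, in 24 libraries (8 groups of 3). With no counts, depth and counting error are unknown.

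Values were taken as log2(FPKM + 1). Genes reaching 1 FPKM in 3 or more libraries (15903, of which 15902 besides NDUFS6) were fitted with limma 3.58.1 in R 4.3.3, with 8 groups in 1 model (16 residual degrees of freedom), a mean-variance trend and robust moderation. Each comparison was two-sided, and calls were made at 0.05 on p-values adjusted by Benjamini-Hochberg over all tested genes (adjusted p in the text). Intervals are 95%. The script was tested on simulated data. The comparisons were each construct with its own empty vector, the 2 controls of a line, and the lines (as an interaction, and between controls). Construct comparisons of a line that are set beside the other control share those libraries. Positions come from GENCODE release 29, promoter windows from RefSeq (GRCh38.p14). The receptors and gene lists were chosen with earlier results of these data known. Named genes were all 9 receptors and NDUFS6, up to 6 members per list and comparison by smallest adjusted p, all ligands, and the highest and defining markers of other cells. DUSP6 and RARB in SK-N-BE(2) knockdown and ETV5 and FOSL1 in SH-SY5Y knockdown fall outside that rule and were named after their values were seen. Alternatives were a pseudocount of 0.1, no filter, a mean of at least 1 FPKM, TPM and median-of-ratios scaling, plain moderation, a replicate block, only the compared groups, leaving out each library, and the line's other empty vector control. All samples carry 1 batch label. Some genes of the lists are counted but not reported here by name.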

Additional observations from a re-analysis of the deposited data

Results flagged for a closer look

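The response to a construct differed between the lines, by the interaction test, for these receptors (log2 difference, SK-N-BE(2) minus SH-SY5Y). For knockdown the values were 2.40 for RET, 0.59 for KIT, 0.47 for ALK, 0.42 for NGFR, -0.64 for GFRA1 and -0.94 for GFRA3. For overexpression they were 1.22 for NGFR, 0.77 for KIT, 0.43 for GFRA3 and 0.33 for GFRA1. With the other empty vector control of each line the values for RET, KIT and ALK under knockdown and for NGFR and KIT under overexpression were called in the same direction, at 1.07, 0.51, 1.52, 2.92 and 0.86. The GFRA1 knockdown value uses the 1 group through which GFRA1 passed the filter on low values, so it is a description. NDUFS6 itself differed by -1.05 for knockdown and -3.73 for overexpression, so the line and the degree of change in NDUFS6 cannot be told apart.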

How the results depend on the processing

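The choice of empty vector control changed more than any other setting that was run. Of 42 receptor results recomputed against the line's other control, those of GFRA1 included, 18 kept direction and side of the threshold, 4 lost the call, 9 gained one and 11 turned direction. Those 11 were ALK (0.91) and GFRA2 (-0.90) in SH-SY5Y overexpression, GFRA1 (-0.43) and GFRA3 (-0.23) in SK-N-BE(2) overexpression, GFRA2 (-0.25) and NGFR (-0.84) in SK-N-BE(2) knockdown, KIT (0.23) and NGFR (0.44) in SH-SY5Y knockdown, GFRA3 (1.77) and NGFR (-1.28) in knockdown between lines, and GFRA3 (-2.28) in overexpression between lines. The cause was not tested. The GFRA1 value here is against the group that let it pass the filter. Called against both controls were GFRA2 in SK-N-BE(2) knockdown, NGFR in SH-SY5Y knockdown, GFRA1 in SK-N-BE(2) overexpression and the GFRA3 and NGFR results between lines. The rest of the 11 were not called on at least 1 side. Of 63 receptor results each, again with GFRA1, 62 were kept under TPM scaling, 62 under median-of-ratios scaling, 62 under plain moderation, 60 with no filter, 58 with a pseudocount of 0.1 and 57 with only the compared groups, and none turned direction. With a mean of at least 1 FPKM 53 of 54 were kept (GFRA1 was not tested), and 482 of 504 without 1 library each.

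Over all genes, SH-SY5Y overexpression called 8809 genes against the other control and 5185 against its own. SK-N-BE(2) overexpression called 4715 genes, 966 when only its 2 groups were fitted, and 2754 to 6196 without 1 library each (the lowest without overexpression library 2, and 3082 without control library 3), so calls in that comparison are the least certain. TPM scaling moved the share of calls that were higher from 49.3% to 60.8% in SK-N-BE(2) knockdown, 47.0% to 35.8% in SH-SY5Y knockdown, 43.4% to 32.2% in SK-N-BE(2) overexpression, 45.1% to 25.0% and 52.8% to 69.5% for the SK-N-BE(2) controls and knockdown between lines, and 49.8% to 38.1% for overexpression between lines. It moved the median of all genes in knockdown between lines from 0.01 to 0.16. Replicate numbers did not pair the libraries: same-numbered libraries correlated between -0.0325 and 0.0136 in the knockdown comparisons and between -0.076 and 0.37 in overexpression. A fit with the replicate number as a block kept 63 of 63 receptor results and called 8970, 8980, 4899 and 5269 genes in SK-N-BE(2) knockdown, SH-SY5Y knockdown and the 2 overexpressions. Depth is unknown, so the counting error of low levels, as for GFRA1, NTRK2 and NTRK3, cannot be given.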
